A study of Mus musculus with 2 samples.

Results

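The 10 immediate early genes Fos, Fosb, Jun, Junb, Jund, Egr1, Egr2, Egr3, Ier2 and Atf3 were followed across the cell classes of the mouse retina, in a control retina and in a retina with oxygen-induced retinopathy (OIR). The genes were taken by symbol from a table of 31053 genes, and all 10 were found. They were chosen as a known family, although earlier results of these data were known. The samples were wild-type C57BL/6 mice at postnatal day 17, and each library came from retinas of 6 mice pooled before dissociation. OIR pups and their nursing mother were kept in 75% oxygen from postnatal day 7 to day 12 and then in room air, which leaves the inner retina short of vessels and oxygen. The control is labelled only as such. In both groups the tissue was digested with papain and DNase I, and cells bound by CD11b magnetic beads were sequenced, so every cell measured had been through the same enzyme and sorting steps.

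Immediate early genes are switched on within minutes of a stimulus, from signalling to transcription factors that are already present, and need no new protein to start. Fos and Fosb pair with Jun, Junb or Jund to form the AP-1 transcription factor, and Atf3, a stress-induced relative, can pair with Jun proteins. Egr1, Egr2 and Egr3 are zinc-finger transcription factors of growth-factor and activity responses, and Ier2 encodes a small nuclear protein of the same early wave. In nervous tissue these genes are known as markers of neuronal activity, and in microglia they are known to be induced while tissue is taken apart into single cells.

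In GENCODE's annotation of the mouse genome build GRCm38 (mm10) all 10 are protein-coding genes. Jun (chromosome 4, 95049034 to 95052222), Jund (chromosome 8, 70698949 to 70700616) and Ier2 (chromosome 8, 84661331 to 84662852) have 1 exon in their single annotated transcript. Junb (84974484 to 84978718) lies on the same chromosome as Ier2 and Jund. Fos is on chromosome 12 (85473890 to 85477273), Fosb on chromosome 7 (19302696 to 19310051), Egr2 on chromosome 10 (67535475 to 67542188), Egr3 on chromosome 14 (70077203 to 70082614) and Atf3 on chromosome 1 (191170296 to 191218039).

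RefSeq's promoter table (GRCm38.p6, 250 bases before to 50 bases after a start site) held 7 of the 10 genes, with 11 start sites. Egr1, Egr3 and Ier2 have no entry there. The sequences below show letters that recur among these genes: the half-site TGACG of the cAMP response element, which CREB and ATF proteins are known to bind. It was searched on both strands and so also as CGTCA. It was found at 7 of the 11 start sites, 3 of them the overlapping ones of Egr2, and so for 5 of the 7 genes. Of all 32544 promoters 20.9% held it, a share of promoters and not of genes. The full element TGACGTCA was in none of the 7 (1.80% of all), nor was the AP-1 site TGANTCA (7.79%). The EGR site GCGNGGGCG was in the Fosb promoter (5.60% of all), and the CArG box, which serum response factor binds, was at 4 of the 11 start sites, all of Egr2 (1.64%). A match describes the letters and does not show that a factor was bound. In the lines that follow capitals mark these motifs, and each stretch is read 5′ to 3′ along its gene's strand. They lie at chr12:85473751-85473838 (plus strand) for Fos, chr7:19310077-19310115 (minus) for Fosb, chr8:84978840-84978864 (minus) for Junb, chr10:67537794-67537820 (plus) for Egr2 and chr1:191183334-191183350 (minus) for Atf3. The Fos stretch spans positions −139 to −52 from its start site.
Fos: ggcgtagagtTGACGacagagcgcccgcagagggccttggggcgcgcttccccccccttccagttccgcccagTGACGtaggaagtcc
Fosb: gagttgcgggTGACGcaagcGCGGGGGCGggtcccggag
Junb: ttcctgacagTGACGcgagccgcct
Egr2: agtCCATATATGGgcagcgaCGTCAcg
Atf3: aatagcattaCGTCAgc

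In control 10826 barcodes were deposited, with 50081145 counted RNA molecules (UMIs, unique molecular identifiers), and in OIR 7283 barcodes with 49773742 UMIs. After filtering, 8576 control and 6135 OIR cells were kept. Over all barcodes the 10 genes had 298650 UMIs in control and 232331 in OIR. The libraries shared 89 barcode sequences, of which 27 were kept in both. Y-linked RNA was lower in OIR than in control in each of the 4 classes compared below, for example Ddx3y at 30.1 and 15.1 CPM in rod-like cells, and the part of the pools' sex in the results was not tested. With 1 library per group there is no replicate check, no test was made, and every interval is a 95% interval of counting error alone. A gene was counted as higher or lower where its level differed by at least 1.5-fold and the interval of the log2 ratio excluded 0, among genes with a mean of at least 10 CPM (CPM, the gene's UMIs scaled to a common total of 1000000 per class and library).

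Cells were clustered without these genes, and clusters were named from marker genes. Although the labels name the cells microglia, most carried photoreceptor markers. Microglia-like cells, the resident macrophages of nervous tissue, numbered 816 in control and 587 in OIR, and all 10 of their markers were detected in both. Rod-like cells numbered 6668 and 3584, cone-like cells 388 and 747, and bipolar-like cells, which relay photoreceptor signals, 267 and 479. Only these 4 classes had at least 200 cells in each library and were compared. Müller glia-like cells (174 and 25), the radial glia of the retina, and smaller classes are given as levels.

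The genes were most abundant in myeloid and Müller glia-like cells and lower in neurons. Together they took 21059 CPM in control microglia-like cells, 12269 CPM in control Müller glia-like cells, 3343 in cone-like, 2811 in rod-like and 1526 in bipolar-like cells, and 220 CPM in pigment epithelium-like cells. In control, Fos was at 3323 CPM (3278 to 3368) in microglia-like cells, 3088 in Müller glia-like, 1250 in cone-like, 1082 in rod-like and 506 in bipolar-like cells. Border macrophage-like cells, at 3476 CPM, did not differ from microglia-like cells beyond counting error. Jun had a steeper order, from 4492 CPM in microglia-like cells and 2749 in Müller glia-like cells to 136 in cone-like, 106 in rod-like and 58.5 CPM in bipolar-like cells. The microglia-like level of Jun was 42.5 times that of rod-like cells (40.5 to 44.5), and that of Fos 3.07 times (3.01 to 3.13).

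Egr1 also had a shallow order in control, at 2941 CPM in microglia-like, 1119 in cone-like, 957 in Müller glia-like, 923 in rod-like and 364 in bipolar-like cells, where Müller glia-like and rod-like cells did not differ beyond counting error. The related Egr2 and Egr3 stood at 252 and 248 CPM in control microglia-like cells and at 1.20 and 0.686 CPM in rod-like cells. Müller glia-like cells lay between, with 8.11 CPM of Egr2 and 33.1 CPM of Egr3, of which free RNA of microglia would give at most 5.94% and 1.43%. Fosb was the exception among the AP-1 genes, with its highest control level in Müller glia-like cells (1339 CPM against 762 in microglia-like cells). Atf3 stood at 777 CPM in microglia-like cells, 26.3 in Müller glia-like, 10.7 in rod-like, 8.35 in cone-like and 2.98 in bipolar-like cells, and its rod-like and cone-like levels did not differ beyond counting error.

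In OIR the order of several genes changed at the top. Müller glia-like cells then held the highest level of Fos (3677 CPM), Fosb (1273), Jun (2951), Jund (1393) and Ier2 (1302) among the 6 classes ordered, from 25 cells. Microglia-like cells held the highest Junb (1721 CPM), Egr1 (1463) and Atf3 (439), and border macrophage-like cells the highest Egr2 (162) and Egr3 (135). For Egr1 the microglia-like, border macrophage-like and Müller glia-like levels did not differ beyond counting error. The microglia-like levels are of the whole class. Its Tmem119-led cluster, described below, held Jun at 3605 and Ier2 at 1748 CPM in OIR, above Müller glia-like cells. In that cluster Jund was close to the Müller glia-like level, at 1396 CPM, and Fos (3184) and Fosb (850) were lower.

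**Figure D1:**
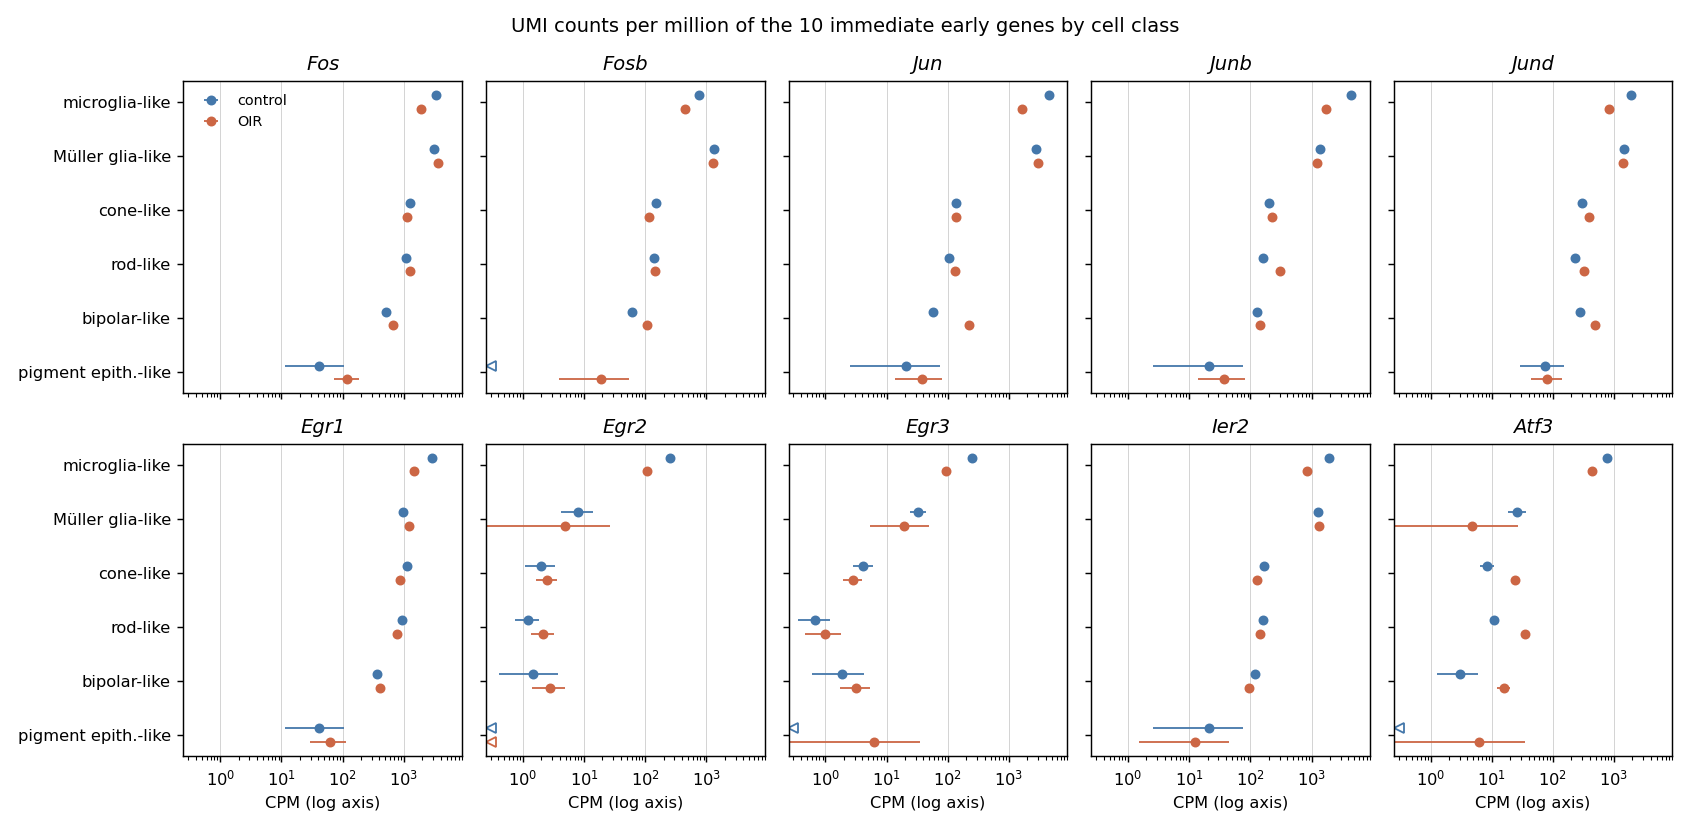
Each panel plots the level of 1 gene (CPM, log axis) in 6 cell classes, in control (blue) and OIR (orange), with 95% Poisson intervals; open arrows mark a count of 0. The microglia-like level is lower in OIR for all 10 genes, while the levels of Müller glia-like cells lie side by side for Fos, Fosb, the Jun family and Ier2.

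RNA free in the cell suspension could carry microglial transcripts into neurons. Rod-like cells held 0.217% of the microglia-like level of 10 microglia markers in control and 0.458% in OIR, cone-like cells 0.166% and 0.251%, and bipolar-like cells 0.180% and 0.343%. At those shares free RNA would give at most 0.665% of the Fos of control rod-like cells, 9.20% of their Jun and 15.7% of their Atf3, but 78.4% of their Egr3. The few Egr2 and Egr3 UMIs of neurons are therefore given as levels only, and neither gene reached the minimum level in any class of neurons. With that amount subtracted, the counts of higher and lower genes given below did not change in any of the 4 classes.

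Microglia-like cells had less of all 10 genes in OIR than in control. All 10 counted as lower, where 17.5% of the 7747 genes measured in these cells did, and none as higher, where 10.2% did. The median log2 ratio of OIR over control was −1.20 over the 10 genes and −0.13 over all measured genes. Scaling to the median gene moves every ratio in this class up by 0.129, and all 10 still counted as lower.

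Among the AP-1 genes of microglia-like cells, the Jun family differed most. Jun stood at 4492 CPM in control and 1647 in OIR, a log2 ratio of −1.45 (−1.48 to −1.41). Junb went from 4446 to 1721 CPM, for a log2 ratio of −1.37 (−1.40 to −1.34). Jund, which most cells express without a stimulus, stood at 1908 and 824 CPM, for a log2 ratio of −1.21 (−1.26 to −1.16). The Fos family was lower by less. Fos stood at 3323 and 1940 CPM, for a log2 ratio of −0.78 (−0.81 to −0.74), and Fosb at 762 and 456 CPM, for a log2 ratio of −0.74 (−0.81 to −0.67). Atf3 was near them, at 777 and 439 CPM and a log2 ratio of −0.82 (−0.89 to −0.75).

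The zinc-finger genes and Ier2 were lower too in microglia-like cells. Egr1 stood at 2941 and 1463 CPM, for a log2 ratio of −1.01 (−1.05 to −0.97). Egr2, a factor of macrophage activation, stood at 252 and 106 CPM, for a log2 ratio of −1.25 (−1.39 to −1.12). Egr3 stood at 248 and 92.3 CPM, with −1.43 (−1.57 to −1.28). The intervals of Egr2 and Egr3 are wider because their counts are smaller, and they do not overlap that of Egr1. Ier2 stood at 1910 and 834 CPM, for a log2 ratio of −1.20 (−1.24 to −1.15).

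**Figure D2:**
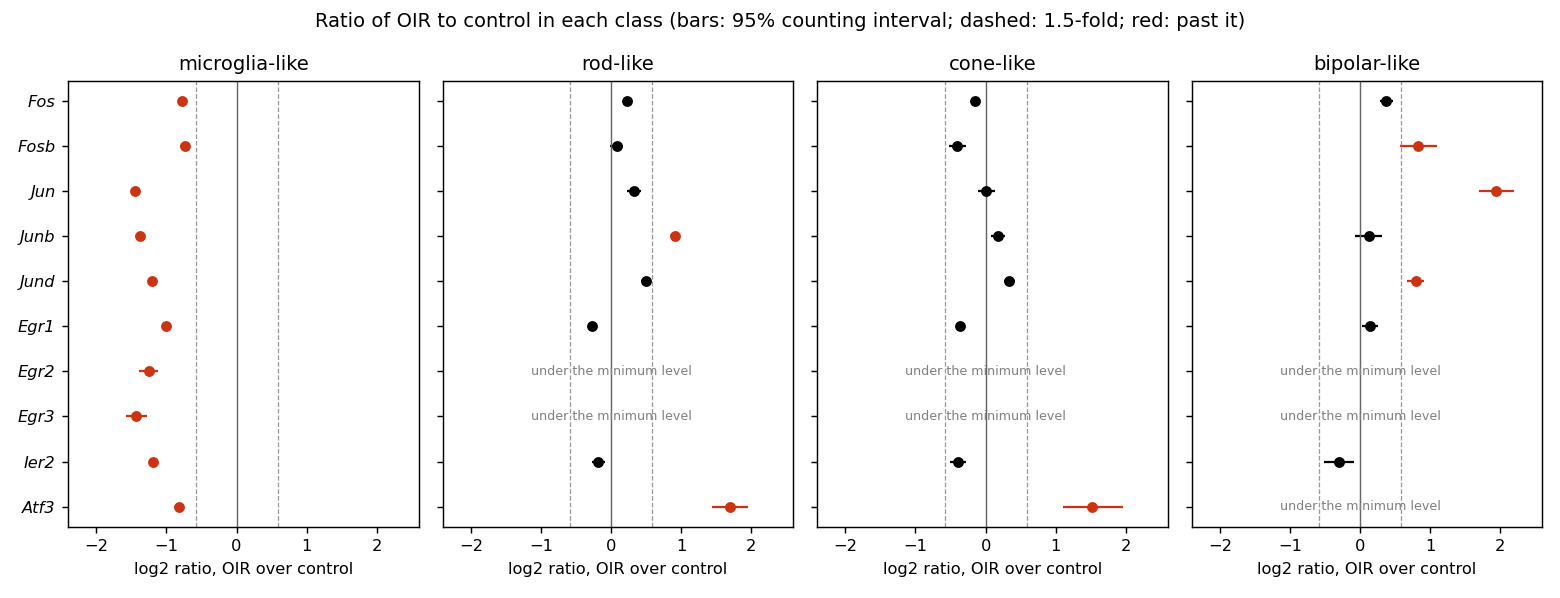
Log2 ratio of OIR over control for each gene (rows) in the 4 classes compared, with 95% counting intervals; dashed lines mark 1.5-fold and red points lie past it with an interval that excludes 0. All 10 genes are to the left in microglia-like cells, and Jun is at 1.94 in bipolar-like, near 0 in cone-like and at 0.33 in rod-like cells.

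The make-up of the microglia-like class differed between the libraries, and the levels differed between its clusters. A cluster led by Tmem119, a gene of resting microglia, held 629 of the 816 control cells (77.1%) and 79 of the 587 OIR cells (13.5%). A cluster led by Mmp12, Spp1 and Hmox1 held 21 control cells (2.57%) and 239 OIR cells (40.7%), and a cluster led by Cst7 held 166 (20.3%) and 269 (45.8%). The 10 genes together took 22549 and 18501 CPM in the Tmem119-led cluster and 14813 and 9803 CPM in the Mmp12-led cluster. In the Cst7-led cluster they took only 1133 and 837 CPM. The cells of that cluster were shallow, with medians of 1807 and 2133 UMIs against 7579 and 6884 in the Tmem119-led cluster. The part of depth in their low level was not tested. Border macrophage markers stood at 93.9 CPM in control and 1191 in OIR in the Cst7-led cluster, beside 23868 and 17350 of microglia markers. The part of border macrophage RNA in the ratios of this cluster was not tested.

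Within the Tmem119-led cluster the libraries were much closer. Fos stood at 3560 CPM in control and 3184 in OIR, and Egr1 at 3149 and 3167. Jun stood at 4822 and 3605 CPM, for a log2 ratio of −0.42, and Jund at 2037 and 1396, a log2 ratio of −0.55. None of the 10 genes counted as lower there, and the log2 ratios ran from −0.58 for Egr3 to 0.05 for Fosb. With each of the 3 clusters given the same weight in both libraries, none counted as lower either, judged by fold alone. The log2 ratios were then −0.50 for Jun and for Junb, −0.54 for Jund and for Egr3, −0.47 for Atf3, −0.39 for Ier2, −0.30 for Egr2, −0.15 for Fos, −0.082 for Egr1 and 0.070 for Fosb.

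A part of the difference was also present inside clusters, and it was uneven between the genes. Jun, Junb and Ier2 had a ratio under 0 with an interval excluding 0 in all 3 clusters, and each counted as lower in 2 of them. In the Mmp12-led cluster Jun stood at 3019 and 1653 CPM, for a log2 ratio of −0.87, and Ier2 at 1686 and 846, a log2 ratio of −0.99. Junb had its lowest ratio in the Cst7-led cluster, −1.59, at 282 and 93.3 CPM. Jund and Atf3 also had ratios under 0 in all 3 clusters, although Atf3 was level in the Cst7-led cluster at 69.1 and 69.0 CPM. Fosb had ratios between 0.05 and 0.21 in the 3 clusters, none with an interval excluding 0. Egr1 had a ratio of −0.59 in the Mmp12-led cluster. In the Cst7-led cluster it stood at 82.9 and 133 CPM, with summed rod markers at 5562 and 5353 CPM, against 1585 and 3315 in the Tmem119-led cluster. Scaled by the summed rod markers of rod-like cells of the same library, rod RNA in that amount would bring 103 and 92.3 CPM of Egr1 and 120 and 153 CPM of Fos, where 146 and 184 CPM of Fos were measured, so neither gene is read there as microglial.

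**Figure D3:**
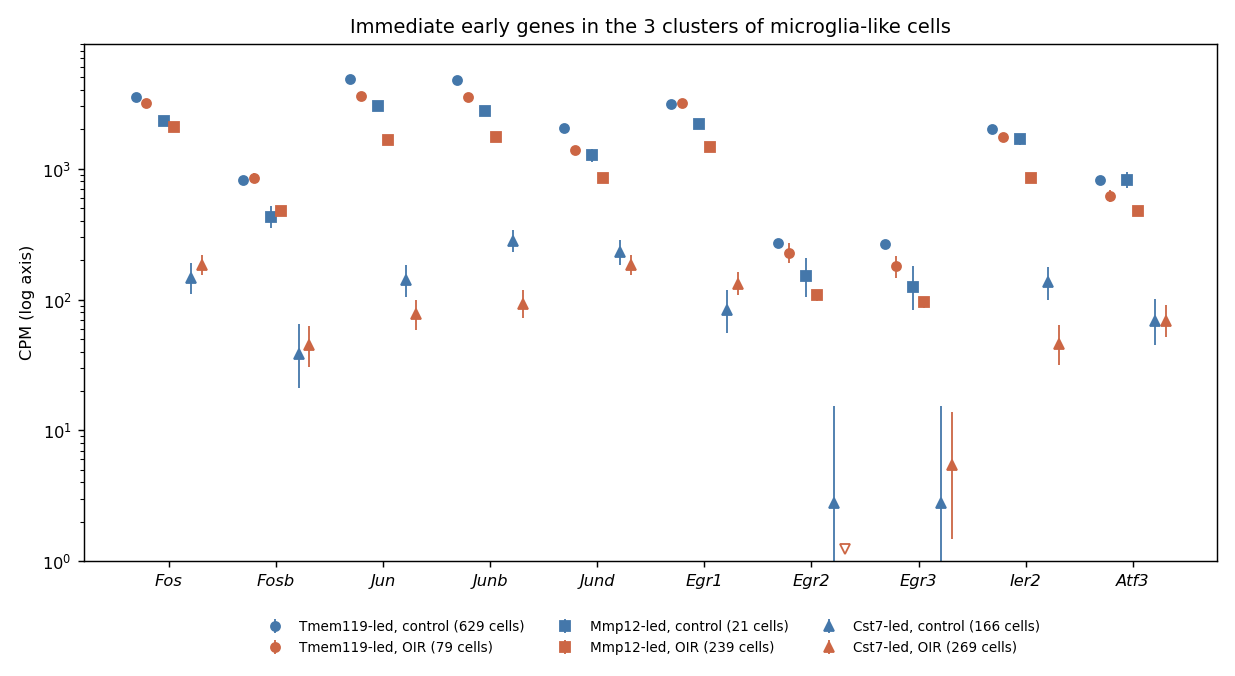
Level of each gene (CPM, log axis) in the 3 microglia-like clusters, with 95% Poisson intervals; circles are the Tmem119-led, squares the Mmp12-led and triangles the Cst7-led cluster, blue for control and orange for OIR, and the open triangle marks a count of 0. For Fos the Cst7-led cluster, at 146 and 184 CPM, lies far below the other clusters at 2074 to 3560 CPM.

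Rod-like cells went the other way for some of the genes. Of the 8 genes that reached the minimum level, 2 counted as higher, Junb and Atf3, where 4.53% of 8082 measured genes did, and none counted as lower, where 1.34% did. The median log2 ratio was 0.28 over the 8 genes and 0.06 over all measured genes. Junb stood at 161 CPM in control and 303 in OIR, a log2 ratio of 0.91 (0.84 to 0.99). Atf3 stood at 10.7 and 34.8 CPM, for a log2 ratio of 1.70 (1.44 to 1.96), on 188 and 357 UMIs. These levels are far below those of microglia-like cells of the same library, as the plot of levels by class shows.

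The other AP-1 genes of rod-like cells were higher by less than 1.5-fold. Jund stood at 227 and 322 CPM, for a log2 ratio of 0.50 (0.43 to 0.57), Jun at 106 and 133 CPM, with 0.33 (0.23 to 0.43), and Fos at 1082 and 1265 CPM, with 0.23 (0.19 to 0.26). Fosb, at 138 and 145 CPM, did not differ beyond counting error. Egr1 and Ier2 had ratios under 0: Egr1 stood at 923 and 765 CPM, for a log2 ratio of −0.27 (−0.31 to −0.23), and Ier2 at 162 and 143 CPM, for a log2 ratio of −0.18 (−0.28 to −0.09). Rod-like cells of the OIR library thus held more of the Jun family and Atf3 and less Egr1 and Ier2 per UMI.

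The highest Junb of rod-like cells lay in 1 cluster that came almost wholly from OIR. A cluster led by Tnnt2, with the endothelin gene Edn2 and the growth factor gene Fgf2 among its leading genes, held 45 control and 969 OIR cells. Junb stood at 652 and 550 CPM there, against 98.7 to 238 CPM in control and 101 to 272 CPM in OIR in the other 8 rod-like clusters. Without the Tnnt2-led cluster only Atf3 counted as higher in the class, although Junb had a ratio above 0 in 7 of the 9 clusters and counted as higher in 4. Atf3 was also highest there, at 35.7 and 68.4 CPM. It had ratios above 0 in 8 of the 9 clusters, with an interval above 0 in 3, and Jund in 8 of 9, with an interval above 0 in 5. Egr1 had a ratio under 0 in all 9 clusters, between −2.39 and −0.24, with an interval under 0 in 7. Jun was mixed, with ratios from −0.61 to 1.36, and so was Fos, from −1.19 to 0.95, with 3 intervals above 0 and 3 under it. Fosb had ratios under 0 in 6 of the 9 clusters, counting as lower in 3 and as higher in none. In the cluster led by the Y-linked gene Eif2s3y, Junb stood at 126 and 221 CPM and Atf3 at 15.0 and 39.0 CPM.

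Cone-like cells differed little. Rod markers outweighed cone markers in this class, at 39176 and 32797 CPM against 13068 and 17268. Of its 3 clusters the one led by Agr2 had the most cone markers, 27480 and 27911 CPM beside 25982 and 24504 of rod markers, and the Prss56-led cluster the fewest, 5292 and 7544 beside 46526 and 41613. Rod RNA was thus among the counts of every cone-like cluster, and its part in the ratios was not tested. Of 8 genes at the minimum level, 1 counted as higher, Atf3, where 3.24% of 8189 measured genes did, and none as lower, where 2% did. Atf3 stood at 8.35 and 24.0 CPM, for a log2 ratio of 1.52 (1.11 to 1.96), and it counted as higher in all 3 cone-like clusters, with ratios of 0.98 to 1.89. Rod-like cells held Atf3 at 10.7 and 34.8 CPM and summed rod markers at 49980 and 44350 CPM. The Atf3 of cone-like cells is therefore not read as separate from rod RNA. Jund stood at 302 and 382 CPM, for a log2 ratio of 0.34 (0.26 to 0.42), and Junb at 203 and 229, with 0.18 (0.08 to 0.27). Jun was at 136 and 137 CPM and did not differ beyond counting error. The remaining genes had ratios under 0. Egr1 stood at 1119 and 868 CPM, for a log2 ratio of −0.37 (−0.41 to −0.32), Fosb at 152 and 115 (−0.40), Ier2 at 166 and 127 (−0.39), and Fos at 1250 and 1130 (−0.15). The count in cone-like cells was unstable: it was 0 with cells thinned to 1500 UMIs and 5 with a stricter cell filter, which left 49 control and 211 OIR cells.

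Bipolar-like cells had the largest difference in Jun. Of 7 genes at the minimum level, 3 counted as higher, Jun, Jund and Fosb, where 4.05% of 8815 measured genes did, and none as lower, where 6.50% did. The median log2 ratio was 0.37 over the 7 genes and −0.07 over all measured genes. Jun stood at 58.5 CPM in control and 224 in OIR, a log2 ratio of 1.94 (1.69 to 2.19), on 157 and 977 UMIs. Jund stood at 282 and 489 CPM, for a log2 ratio of 0.79 (0.67 to 0.91), and Fosb at 60.7 and 108 CPM, with 0.83 (0.57 to 1.09). Fos was higher by less, at 506 and 655 CPM, for a log2 ratio of 0.37 (0.28 to 0.47). Junb, at 130 and 142 CPM, did not differ beyond counting error, and Ier2 stood at 118 and 95.7 CPM, for a log2 ratio of −0.30 (−0.51 to −0.08). Atf3, at 2.98 and 15.8 CPM, was under the minimum level.

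Jun was higher in OIR in each kind of bipolar-like cell. It counted as higher in 5 of 5 clusters, with log2 ratios of 1.41 to 2.49. In the Slit2-led cluster it stood at 50.6 and 285 CPM, and in the Vstm2b-led cluster, which carries the rod bipolar genes Car8 and Pcp2, at 22.8 and 86.5 CPM. Jund had an interval above 0 in 5 of 5 clusters, with ratios of 0.46 to 0.99. The Slit2-led cluster also had higher Fosb, at 41.0 and 138 CPM, for a log2 ratio of 1.75, and higher Junb, at 113 and 187 CPM. In the Cck-led and Otor-led clusters Junb had ratios of −0.58 and −0.50. The levels differed between clusters: Fos stood at 112 and 125 CPM in the Vstm2b-led cluster and at 1336 and 1691 CPM in the Otor-led cluster. The summed microglia markers of bipolar-like cells were 62.2 CPM in control and 85.0 in OIR, and those of Müller glia were 189 and 174. Rod markers were far higher there, at 6506 and 4685 CPM, beside 11833 and 12576 of bipolar and 2359 and 2607 of cone markers. Rod RNA in that amount would bring 13.8 and 14.1 CPM of Jun. In the Otor-led cluster rod markers stood at 25907 and 14655 CPM and cone markers at 1807 and 9196, against 3073 and 3485 of bipolar markers, whereas the Vstm2b-led cluster had 28757 and 24930 of bipolar and 2246 and 3032 of rod markers. Rod RNA in the amount of the Otor-led cluster would bring 561 and 418 CPM of its Fos. It would bring 54.8 and 44.0 CPM of its Jun, where 178 and 471 CPM were measured. The part of cone RNA in the levels of that cluster was not tested.

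**Figure D4:**
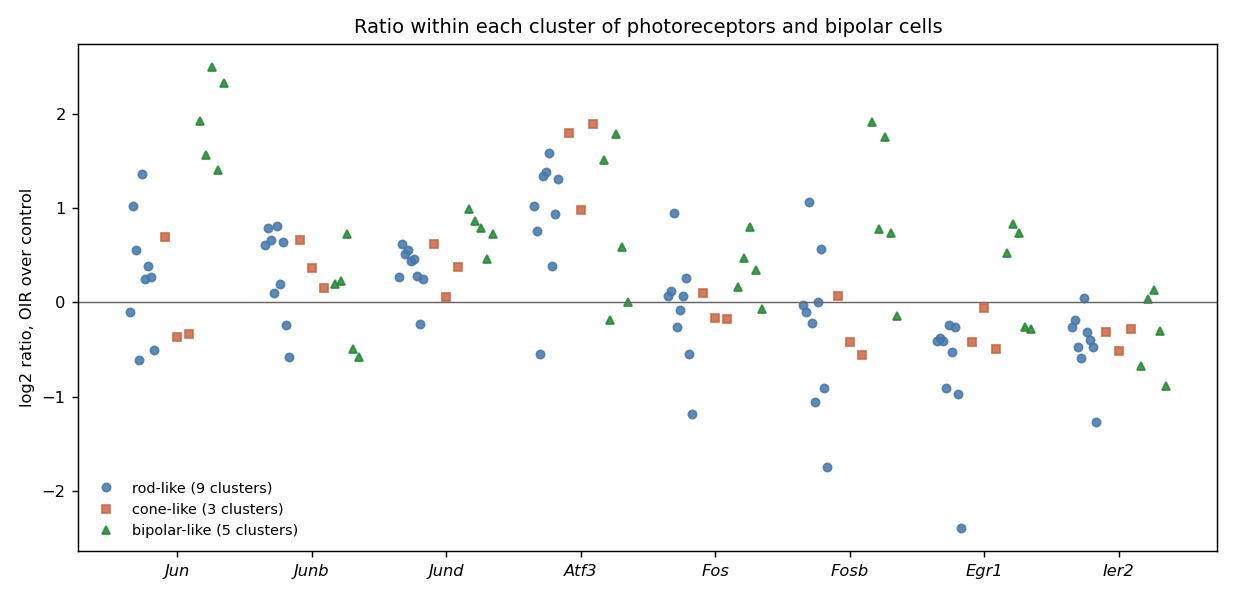
Log2 ratio of OIR over control for 8 genes within each cluster of rod-like (blue circles, 9 clusters), cone-like (orange squares, 3) and bipolar-like cells (green triangles, 5). All 5 bipolar-like points for Jun lie above 1.4, and all 9 rod-like points for Egr1 lie below 0.

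The direction thus differed between classes. Jun, Jund and Fosb counted as lower in microglia-like and higher in bipolar-like cells, Junb and Atf3 as lower in microglia-like and higher in rod-like cells, and Atf3 also as higher in cone-like cells. Cone-like cells carried much rod RNA, and their Atf3 is not read as separate from it. Microglia-like cells nevertheless remained above neurons in OIR. Jun was 76.8 times as high in microglia-like as in bipolar-like cells in control (65.7 to 90.5) and 7.36 times in OIR (6.89 to 7.87). Junb was 27.7 times as high in microglia-like as in rod-like cells in control and 5.69 times in OIR. For Jun both sides contributed over the whole classes, with a log2 ratio of OIR over control of −1.45 in microglia-like and 1.94 in bipolar-like cells. The microglia-like ratios here are of the whole class and depend on its mix of clusters. Inside its 3 clusters Jun had ratios of −0.87 to −0.42 and counted as lower in 2. Fosb had ratios of 0.05 to 0.21 there, and neither Fosb nor Jund counted as lower in any.

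Glia other than microglia were spread over 3 clusters. The Müller glia-like cluster, led by Aqp4, the water channel of these cells, held 174 control and 25 OIR cells. Fos stood at 3088 and 3677 CPM there, Jun at 2749 and 2951, Fosb at 1339 and 1273, and Ier2 at 1262 and 1302, so the levels were alike within 1.5-fold. A Gfap-led cluster, with the gliosis gene Serpina3n second among its leading genes, held 13 control and 299 OIR cells. It was left unnamed because the astrocyte marker Gfap, and no Müller marker, was among its top 10 genes. It held 179 and 297 CPM of summed astrocyte markers. In OIR it held 1852 CPM of Fos, 1244 of Jun, 801 of Junb and 124 of Atf3. A Crhbp-led cluster with 89 and 127 cells, also unnamed, held Fos at 1738 and 2048 CPM, Jun at 1171 and 1151, and Atf3 at 19.6 and 66.0. Both unnamed clusters carried the Müller gene Rlbp1, at 866 CPM in the Gfap-led and 730 CPM in the Crhbp-led cluster in OIR. Rod markers stood at 20714 and 22309 CPM in the Gfap-led and 32016 and 27175 in the Crhbp-led cluster, above the Müller markers at 16041 and 7232 and at 8018 and 5859. The Aqp4-led cluster had 3022 and 3193 of rod and 22905 and 20423 of Müller markers. Rod RNA in that amount would bring 448 and 636 CPM of Fos in the Gfap-led cluster, where 1307 and 1852 CPM were measured. In the Crhbp-led cluster it would bring 693 and 775 CPM of Fos. It would bring less Jun, 43.8 and 67.0 CPM in the Gfap-led and 67.8 and 81.6 CPM in the Crhbp-led cluster. For Atf3 it would bring 4.45 and 17.5 CPM in the Gfap-led and 6.88 and 21.3 CPM in the Crhbp-led cluster. Because control and OIR cells lay mostly in different clusters of these 3, Müller glia were not compared as a class.

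The small myeloid classes also held high levels that were lower in OIR. Border macrophage-like cells (47 and 139 cells) held Jun at 4241 and 1837 CPM, Junb at 3819 and 1291, and Fos at 3476 and 2013. The class held different cells in the libraries. A cycling cluster led by Top2a made up 5 of its 47 control and 68 of its 139 OIR cells. Border macrophage markers stood at 735 CPM in control and 7368 in OIR, and microglia markers at 32697 and 18337, so the control cells carried nearly the microglia markers of microglia-like cells (34642 CPM). Neutrophil-like cells (22 and 51 cells) held Junb at 3128 and 1817 CPM and Jun at 2122 and 1084. Both classes also carried the microglia gene P2ry12, at 973 and 273 CPM in border macrophage-like and 997 and 314 CPM in neutrophil-like cells, so microglial RNA was among their counts, and its part in these levels was not tested. In 37 control and 11 OIR endothelial-like cells Jun stood at 885 and 568 CPM.

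Per cell, the difference lay in how many cells carried the transcripts as well as in how much. After every cell had been thinned to 1500 UMIs, control microglia-like cells had a UMI of a median of 7 of the 10 genes and OIR cells of 5. None of the 10 was detected in 8.80% of the 761 control cells (6.89 to 11.05 by the exact interval), against 20.8% of the 501 cells from OIR (17.3 to 24.6). Cells with at least 5 of the 10 made up 81.7% and 50.5%. The share of cells with a UMI was lower for all 10 genes with intervals that do not overlap, for example for Jun with 84.0% in control (81.2 to 86.5) against 53.7% in OIR (49.2 to 58.1). These shares were computed for the 10 genes only, so no share over all genes stands beside this count. Without thinning the shares for Jun were 81.4% and 55.7%. As the plot of genes per cell shows, the cells of both libraries had a group near 0 and another at 5 or more. In control 0.920% of cells had 3 of the genes and 27.2% had 8, and in OIR 4.79% had 4 and 14.0% had 7. The Cst7-led cluster, low in these genes, held 20.3% of control and 45.8% of OIR cells of the class. Its part in these shares was not tested.

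Rod-like cells with none of the 10 genes were fewer in OIR, 12.3% of 1773 cells (10.8 to 13.9) against 21.4% of 2908 (19.9 to 23.0). Thinning left out 3760 control and 1811 OIR rod-like cells, which were shallower. Shares of rod-like cells with a UMI were higher with intervals apart for 6 genes, Fos, Fosb, Jun, Junb, Jund and Atf3. Here too the shares were computed for the 10 genes only, with no share over all genes. The Tnnt2-led cluster made up 0.675% of control and 27.0% of OIR rod-like cells, and its part in these shares was not tested. By CPM Fosb was level in the class, at 138 and 145, with ratios under 0 in 6 of the 9 clusters. With thinning to 1000 UMIs the intervals of Fosb and Jun overlapped, which left 4 genes, and at 2500 UMIs that of Jun did, which left 5. The Fos share was 49.1% in control (47.3 to 50.9) and 61.6% in OIR (59.3 to 63.9), and the Junb share 16.2% (14.9 to 17.6) and 29.4% (27.3 to 31.6). The Egr1 share was 44.7% (42.9 to 46.5) and 47.0% (44.6 to 49.3), and so was not lower in OIR although its CPM was. Bipolar-like cells with none were 37.5% of 267 (31.6 to 43.6) and 18.5% of 470 (15.1 to 22.3). Jun was seen in 5.24% (2.90 to 8.64) and 22.1% of them (18.5 to 26.2), and Jund in 32.6% (27.0 to 38.6) and 53.0% (48.4 to 57.6). Without thinning the bipolar-like shares for Jun were 28.1% and 52.2%.

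Pigment epithelium-like cells served as a class low in these genes, with median depths of 2961 and 3769.5 UMIs against 7266 and 6319 in bipolar-like cells. At 1500 UMIs a UMI of Fos was found in 1 of 24 cells from control (4.17%) and 4 of 36 from OIR (11.1%), of Jun in 4.17% and 2.78%, and of Jund in 12.5% and 19.4%. The exact intervals of the Jun shares were 0.105 to 21.1% and 0.0703 to 14.5%, too wide to set the bipolar-like shares against. By the summed microglia markers, free RNA of microglia would give at most 13.8% of the Jun level of control bipolar-like cells and 2.52% of that in OIR. Atf3 had no UMI in any of the thinned pigment epithelium-like cells, which with so few cells allows a share of up to 14.2% in control by the exact interval, so the Atf3 shares of neurons (1.89% and 4.74% in rod-like cells) cannot be set against it.

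**Figure D5:**
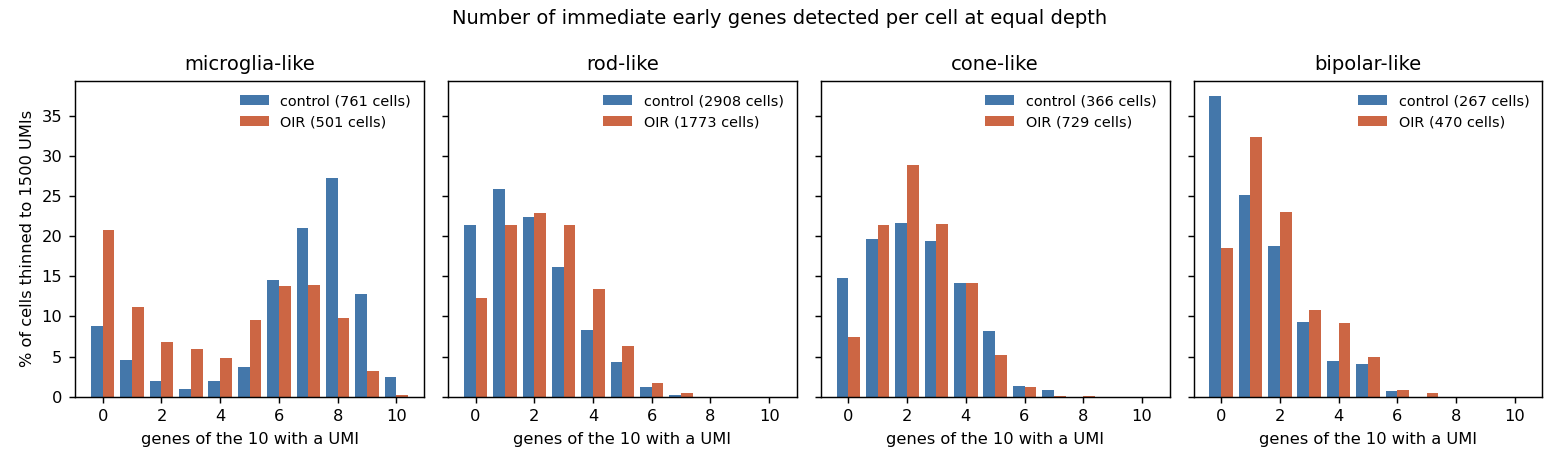
Share of cells (y axis, percent) by the number of the 10 genes with at least 1 UMI (x axis) after thinning to 1500 UMIs, in control (blue) and OIR (orange). In microglia-like cells the share with none is 8.80% in control and 20.8% in OIR, and in bipolar-like cells it is 37.5% and 18.5%.

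Other early response genes were also counted. For this list and those that follow, the microglia-like values are sums over the whole class. The mix of its clusters differed between the libraries, and the part of that mix in these values was not tested. Of 37 such genes, 28 were measured in microglia-like cells, of which 18 counted as lower, where 17.5% of all measured genes did, 3 as higher (10.2% of all) and 7 as neither, with a median log2 ratio of −0.72 against −0.13 over all measured genes. Klf2, a transcription factor that restrains inflammation, stood at 2463 and 632 CPM, for a log2 ratio of −1.96 (−2.01 to −1.91). Plk2, a kinase induced by stress and activity, was higher, at 2.81 and 27.1 CPM, and so was Klf10, at 8.27 and 31.7 CPM. In rod-like cells 18 of the list were measured, 9 counted as higher (4.53% of all genes measured there) and none as lower (1.34%). The largest were Gadd45b, a stress and DNA-repair gene at 7.26 and 139 CPM (log2 ratio 4.25), Socs3, an inhibitor of cytokine signalling at 3.26 and 36.8 CPM (3.50), and Plk2 at 4.51 and 39.3 CPM (3.12). Cone-like cells had 10 of 22 higher (3.24% of all) and none lower, and bipolar-like cells 2 of 15 higher (4.05% of all), Dusp1 and Gadd45b. Socs3 was another gene of opposite direction, at 556 and 241 CPM in microglia-like cells.

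Of 19 partners and relatives of AP-1, 14 were measured in microglia-like cells, of which 6 counted as lower and 2 as higher, beside 17.5% and 10.2% of all measured genes. Jdp2, a repressor that pairs with Jun proteins, stood at 4.99 and 15.6 CPM (1.64), and Maff at 7.33 and 20.3 CPM (1.47). In rod-like cells none of 7 counted in either direction. There Atf7, a factor of the ATF family, stood at 58.5 and 81.5 CPM (0.48), Ddit3, a factor of the stress response to unfolded protein, at 83.3 and 112 CPM (0.43), and Nrl, the leucine-zipper factor of rod identity, at 2039 and 1761 CPM (−0.21).

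The kinases and factors known to act upstream of immediate early genes included 22 measured in microglia-like cells, of which 9 counted as lower and none as higher, beside the same 17.5% and 10.2% of all genes. Creb1, the factor of the cAMP response element, stood at 53.8 and 23.3 CPM (log2 ratio −1.21), Mapk14, the stress kinase p38, at 74.6 and 35.9 (−1.05), and Srf at 34.6 and 17.0 (−1.03). In rod-like cells none of 19 counted, and Mef2c stood at 108 and 75.2 CPM (−0.52), the EGR co-repressor Nab1 at 10.3 and 13.7 (0.41) and Elk4, a partner of serum response factor, at 22.7 and 28.1 (0.31). Cone-like cells had 1 of 20 lower, Mef2c, and bipolar-like cells 1 of 19 lower, Creb1.

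Both libraries were dissociated with the same protocol and no retina was measured without dissociation, so transcripts induced during digestion and sorting and transcripts present in the living retina cannot be told apart. Heat shock genes, known to be induced in that step, had no common direction as a list. In microglia-like cells 10 of 12 were measured, with a median log2 ratio of 0.10, and 1 counted in each direction, near the share of all genes. Hsp90ab1 counted as higher, at 892 and 1570 CPM, and Dnajb1 as lower, at 156 and 66.5 CPM. Hspa1a, the inducible chaperone, was at 61.0 and 41.4 CPM in microglia-like cells and at 73.1 and 52.8 in rod-like cells. None of 10 counted in rod-like cells, where Hsph1 stood at 21.5 and 15.7 CPM (−0.46) and Dnajb1 at 44.5 and 56.0 (0.33). Of 12 further genes known from microglia activated outside the tissue, 5 counted as lower in microglia-like cells and 1 as higher, beside 17.5% and 10.2% of all genes. The chemokine gene Cxcl2 stood at 11.4 and 84.0 CPM, the adhesion gene Icam1 at 606 and 208, and Nfkbid at 118 and 58.9. Tnfaip3, a brake on NF-κB, was the only gene of that list measured in rod-like cells, at 131 and 97.3 CPM. Measures of RNA quality were alike over the whole microglia-like class, with mitochondrial genes at 3.28% and 3.15% of UMIs and ribosomal genes at 15.2% and 16.7%. Between its clusters they differed. Mitochondrial genes took 5.24% and 3.90% in the Cst7-led, 3.88% and 3.03% in the Mmp12-led and 3.13% and 3.08% in the Tmem119-led cluster. Their part in the microglia-like ratios was not tested. In rod-like cells mitochondrial genes took 3.91% in control and 2.61% in OIR, and their part in the rod-like ratios was not tested.

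The pattern of the 10 genes over the 4 classes and 2 libraries was compared with every other gene of at least 20 CPM on average, by Pearson's correlation of log2(CPM + 1) with the mean of the 10 over 8 points that share libraries. Among themselves the 45 pairs of the 10 genes had a median correlation of 0.94, with the lowest, 0.70, between Jund and Egr1. Of 6548 other genes the nearest were Srsf9, Nfkbiz, Txnip, Klf2, Prex1, Nfkbia, Tapbp, Qk, Leprot and F11r, all with a correlation of 0.99. Nfkbiz, an NF-κB regulator, stood at 413 CPM in control and 226 in OIR microglia-like cells, 5.71 and 10.7 in rod-like cells, 8.35 and 12.8 in cone-like cells, and 2.98 and 8.93 in bipolar-like cells. Nfkbia, the inhibitor of NF-κB, was at 1193 and 622 CPM in microglia-like cells and 52.2 and 79.0 in rod-like cells. With most of the variation between microglia-like cells and neurons, these correlations describe where the genes are abundant.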

How the data were processed

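Single-cell 3′ libraries of 1 control and 1 OIR pool were used. The authors deposited raw UMI counts per gene and barcode, made with Cell Ranger 3.0.2 on build mm10, per the submitters' processing notes. Annotation release and cell calling were not given in the sources used here. All 10 genes and the gene lists were chosen with earlier results of these data known.

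Barcodes were kept from 500 detected genes up and with no more than 10% of UMIs from mitochondrial genes (9454 control, 6516 OIR). Scrublet's automatic threshold marked 0 and 1, so barcodes of the highest scores were left out at 0.8% per 1000 barcodes (878 and 381 of those kept). Cells were clustered with scanpy 1.11.5 (2000 variable genes without the 10 genes and list genes, 30 components, 20 neighbours, Leiden resolution 1). Cells outside rod-led clusters were clustered again, a second round added after the first had merged myeloid types. A cluster took a class name where its markers had a mean log2 fold of 0.5 or more over other cells, at least 3 were detected in 10% of its cells, and no other class had more markers among its top 10 genes. Unnamed clusters held 102 control and 426 OIR cells.

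Counts were summed per class and library and scaled to CPM. CPM carry exact Poisson intervals, log2 ratios exact conditional binomial intervals and shares Clopper-Pearson intervals, at 95%, covering counting error only. In ratios 3 counts stood in for a count of 0. The interval step was tested on simulated data. Named besides the 10 genes were, per list, the 3 measured genes with the largest absolute ratio in microglia-like and in rod-like cells, and the 10 genes of most similar pattern. Of the genes so named, 1 is not reported here. Leading genes of clusters, Dusp1 and Ddx3y were named after their values were seen. Alternatives covered the cell filter, scaling, thinning, cell weights, clustering, doublets, low-count filter, fold and free RNA.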

Additional observations from a re-analysis of the deposited data

Results flagged for a closer look

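For 5 of the 10 genes the direction in OIR was opposite in a class of neurons and in microglia-like cells, with both ratios at least 1.5-fold and both counting intervals excluding 0. With 1 library per group the difference itself was not tested. In bipolar-like against microglia-like cells the log2 ratios differed by 3.38 for Jun, by 2.0 for Jund and by 1.57 for Fosb. In rod-like against microglia-like cells they differed by 2.28 for Junb and by 2.52 for Atf3, and in cone-like against microglia-like cells by 2.35 for Atf3. The Atf3 of cone-like cells is not read as separate from the rod RNA they carried. The microglia-like side of all 5 genes depends on the mix of clusters: with the 3 clusters weighted equally none counted as lower, at log2 ratios of −0.50 for Jun, −0.50 for Junb, −0.54 for Jund, −0.47 for Atf3 and 0.070 for Fosb. Inside the clusters Jun and Junb counted as lower in 2 of 3, Atf3 in 1 and Jund and Fosb in none. For Junb the rod-like side depends on the Tnnt2-led cluster, without which its ratio was 0.39 and no longer counted as higher. Its ratio was above 0 in 7 of the 9 rod-like clusters and counted as higher in 4, and inside the Tnnt2-led cluster it stood at 652 CPM in control and 550 in OIR.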

How the results depend on the processing

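The count of 10 genes lower in microglia-like cells became 0 with clusters given equal weight in both libraries, 0 in the Tmem119-led cluster alone and 4 in cells with fewer than 2000 UMIs. It was 7 at a fold of 2 and 9 or 10 under the other alternatives. Leaving out the Cst7-led or the Mmp12-led cluster left it at 10. The 2 genes higher in rod-like cells became 1 at a fold of 2, 1 with clusters weighted equally and 1 without the Tnnt2-led cluster. The 1 gene higher in cone-like cells became 5 under the stricter cell filter and 0 after thinning to 1500 UMIs. The 3 genes higher in bipolar-like cells became 1 at a fold of 2. Shares of cells with a UMI, computed for the 10 genes only, were higher for 0 genes in cone-like cells thinned to 1500 UMIs and for 1 at 1000 and 1 at 2500 UMIs. Single genes that changed sign were Fosb in microglia-like cells (0.070 with equal cluster weights, 0.052 in the Tmem119-led cluster), Egr1 in microglia-like cells (0.0081 in the Tmem119-led cluster) and Atf3 in cone-like cells (−1.03 in cells with fewer than 2000 UMIs, of which there were 28 in control and 20 in OIR). The cause of these changes was not tested, except that the cluster settings by construction hold the mix of clusters fixed. Over all single-gene values past the rule, 161 of 270 alternatives stayed within the counting interval, 105 moved and 4 changed sign. Bipolar-like cells under 2000 UMIs gave no value, with 1 control cell. The settings that keep or leave out a single cluster, and those by 2000 UMIs, were chosen after seeing the data. No paired analysis was possible because each group has 1 library.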
